A study of Homo sapiens with 12 samples.

Results

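Heme synthesis was represented by 8 enzyme genes, ALAS1, ALAS2, ALAD, UROS, UROD, CPOX, PPOX and FECH, whose RNA was measured in K562 cells after treatment with the USP7 inhibitor FT671. They were selected by name from ALAS to FECH, and all 8 were found among the 60609 genes of the count files. K562 is an established human leukemia line with erythroid features. FT671 is a small molecule that inhibits the deubiquitinase USP7. Both groups were unmodified K562 cells, treated for 48 h with DMSO as the solvent control (3 libraries) or with 10 μM FT671 (3 libraries). All libraries come from this 1 cell line, and the study describes them as independent experiments. After removal of ribosomal RNA the libraries were read from both ends, and the deposited values are reads counted per gene. Levels are given as CPM, a gene's counts scaled to a common library total, with library sizes scaled by edgeR's TMM method. The 6 ChIP samples of the series were not analysed here.

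The libraries held between 4555220 and 14250500 counts, and the members had between 73 and 5019 counts in a library. Of 8 erythroid markers, 7 passed the filter on low counts, and 3 of these rose and 4 fell after FT671. Their summed level was 1091.7 to 1165.5 CPM in DMSO and 1036.6 to 1074.7 CPM after FT671, and HBE1, which did not pass the filter, had between 2 and 13 counts. Among 5 lymphoid markers MS4A1 had 0 counts and CD3E and CD79A at most 4, while CD3D lay between 16.5 and 29.3 CPM. Their summed level was 18.7 to 23.5 CPM in DMSO and 26.5 to 32.9 CPM after FT671. Among 4 monocyte markers CD14 and FCN1 had at most 1 count and CSF1R at most 3, while LYZ lay between 50.8 and 75.6 CPM. Their summed level was 51.3 to 54.2 CPM in DMSO and 72.2 to 76.0 CPM after FT671. CD3D and LYZ rose, and the part of these markers in the results was not tested.

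Heme is an iron-containing ring that cells build by a pathway which starts in the mitochondrion, continues in the cytosol and ends in the mitochondrion. The first enzyme exists as a housekeeping isozyme, ALAS1, which heme represses, and as an erythroid isozyme, ALAS2, which GATA1 activates and whose translation depends on iron. Erythroid cells make most of the heme of the body for hemoglobin, and K562 cells are a common model of this program.

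The promoter sequences below are shown because the isozymes of the first step are driven by different factors, and because several of these factors are described further on. They were taken from RefSeq (GRCh38.p14), which had a window of 300 bases around the start for 7 of the 8 genes and none for UROS. Each line gives the 250 bases before the start, 5′ to 3′ on the strand of the gene. Capitals mark exact matches, on either strand, to the GATA motif AGATAA or TTATCT and to the core TGAGTCA or TGACTCA shared by NF-E2 and AP-1.
ALAS2, chrX:55030978-55031227, minus strand: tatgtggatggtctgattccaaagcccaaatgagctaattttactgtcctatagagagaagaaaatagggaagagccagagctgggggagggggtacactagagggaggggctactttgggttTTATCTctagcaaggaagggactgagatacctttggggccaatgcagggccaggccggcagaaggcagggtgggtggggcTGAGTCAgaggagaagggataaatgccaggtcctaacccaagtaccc
CPOX, chr3:98593612-98593861, minus strand: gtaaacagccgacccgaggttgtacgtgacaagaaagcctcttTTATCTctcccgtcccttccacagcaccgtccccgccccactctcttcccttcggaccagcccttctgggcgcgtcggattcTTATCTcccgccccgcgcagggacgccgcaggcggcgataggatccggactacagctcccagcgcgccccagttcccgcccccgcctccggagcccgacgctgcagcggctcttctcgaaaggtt
ALAS1, chr3:52197833-52198082, plus strand: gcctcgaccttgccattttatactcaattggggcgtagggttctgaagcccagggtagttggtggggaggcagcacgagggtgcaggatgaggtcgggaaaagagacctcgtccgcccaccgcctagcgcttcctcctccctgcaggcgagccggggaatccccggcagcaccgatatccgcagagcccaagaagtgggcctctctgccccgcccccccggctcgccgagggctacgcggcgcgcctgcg
The ALAS2 window held 1 GATA match at positions −127 to −122 and 1 NF-E2 core at −47 to −41, counted back from the start. CPOX held 2 GATA matches, at −207 to −202 and −125 to −120, and 1 of the 2 windows of PPOX held 1 at −63 to −58. The remaining windows of the members had no match to these motifs. ALAS1 had an exact match to the NRF1 palindrome, in capitals on the next line, at positions 22 to 31 after the start.
ALAS1, chr3:52198099-52198118, plus strand, NRF1 palindrome in capitals: ccaagGCGCATGCGCagcgg
Of 35116 windows of this length in the table, 10.3% held the GATA motif, 4.95% the NF-E2 and AP-1 core and 1.24% the NRF1 palindrome.

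After FT671, 1 of the 8 enzymes was lower (ALAS1), 1 was higher (UROS) and 6 were not called at an adjusted p-value of 0.05. Calls come from the quasi-likelihood test of edgeR, and p-values were adjusted by Benjamini-Hochberg over all 13895 genes tested. Over all genes tested, 50.1% were called, 23.6% as higher and 26.5% as lower, so that the share of 25.0% among the members lay under the background. None of the 8 was called at 1e-05 by edgeR, against 5.92% of all genes. The study's methods apply this threshold to results of DESeq2, a different test. The log2 fold changes of the members lay between −0.46 and 0.37. Their median was −0.042, against −0.01 over all genes, and the median size without sign was 0.202 against 0.364. In 5 of the 8 genes the 3 FT671 libraries did not overlap the 3 DMSO libraries (2 higher and 3 lower), or 62.5%, where 57.1% of all genes did not overlap. The summed level of the 8 genes was 609.2, 606.2 and 552.0 CPM in DMSO replicates 1, 2 and 3 and 570.5, 588.2 and 576.0 CPM after FT671, so the groups overlapped. UROD alone made up 53.4% to 58.6% of this sum in each library.

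The housekeeping isozyme ALAS1 (ENSG00000023330, chromosome 3 from 52198086 to 52214327 in hg38), which condenses glycine with succinyl-CoA to aminolevulinate, had 57.5, 64.9 and 66.4 CPM in DMSO replicates 1, 2 and 3. After FT671 it had 46.2, 43.7 and 46.8 CPM. Every FT671 library was below every DMSO library, and the means were 63.0 ± 4.73 and 45.6 ± 1.68 CPM (SD, n = 3 each). The log2 fold change was −0.46 (standard error, SE, 0.0936, adjusted p = 0.00107 by edgeR), with a 95% interval of −0.66 to −0.26. In bulk samples, fewer cells of a type and less RNA per cell cannot be told apart.

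ALAS2 (ENSG00000158578, chromosome X from 55009055 to 55030977) carries out the same reaction in erythroid cells. It had 23.5, 21.0 and 17.6 CPM in the DMSO replicates and 24.2, 24.9 and 24.6 CPM in the FT671 replicates. The FT671 values lay close together and above all DMSO values, which spread more widely (20.7 ± 3.0 against 24.6 ± 0.345 CPM, SD, n = 3 each). The difference was not called, with a log2 fold change of 0.22 (SE 0.122, adjusted p = 0.147 by edgeR) and a 95% interval of −0.04 to 0.48. With a correction for GC content it passed the threshold at 0.29 (adjusted p = 0.0228 by edgeR), and with one for gene length it was 0.11 (adjusted p = 0.421). Its exons share 3 bases with APEX2 on the other strand (log2 fold change −0.54).

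Within a library, the ratio of ALAS2 to ALAS1 does not depend on how libraries are scaled. Per kb of annotated exon it was 0.507, 0.401 and 0.329 in DMSO replicates 1, 2 and 3, and 0.651, 0.708 and 0.651 after FT671. All 3 FT671 libraries had the higher ratios, and ALAS1 remained the more abundant isozyme per kb in all 6 libraries. On the log2 scale the mean ratio was −1.3 ± 0.313 in DMSO and −0.58 ± 0.0698 after FT671 (SD, n = 3 each), a difference of 0.72 or 1.65-fold. A two-sided exact permutation test gave p = 0.1, the smallest that 3 libraries against 3 allow. Without DMSO replicate 3, the library with the lowest ratio, the difference was 0.57.

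**Figure D1:**
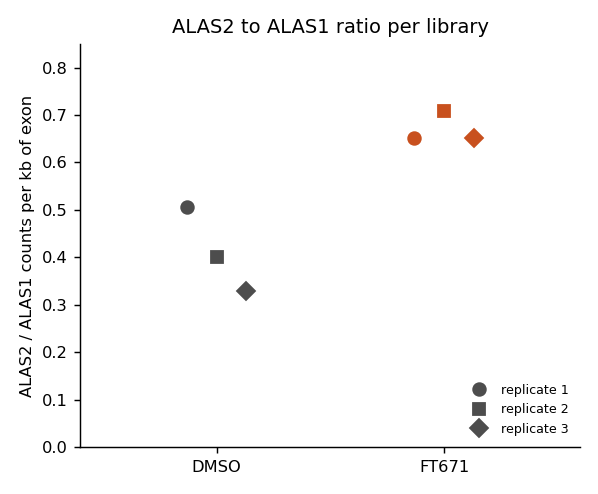
Ratio of ALAS2 to ALAS1 counts per kb of annotated exon (vertical axis, linear, from 0) in each library by treatment, 1 point per library. The lowest FT671 ratio (0.651) is above the highest DMSO ratio (0.507).

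ALAD, UROS and UROD act in the cytosol. ALAD (ENSG00000148218, chromosome 9 from 113386312 to 113401290), which joins pairs of aminolevulinate molecules to porphobilinogen, had 29.6, 32.1 and 31.2 CPM in DMSO and 25.5, 27.8 and 28.7 CPM after FT671. The FT671 libraries lay just below the DMSO libraries without overlap. The log2 fold change of −0.17 (SE 0.103, adjusted p = 0.195 by edgeR, 95% interval −0.39 to 0.054) was not called.

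UROS (ENSG00000188690, chromosome 10 from 125784980 to 125823258), which closes the ring to uroporphyrinogen III, had 18.4, 18.4 and 13.5 CPM in DMSO and 25.5, 22.0 and 20.2 CPM after FT671. All FT671 values were higher than all DMSO values, with means of 16.8 ± 2.84 and 22.6 ± 2.72 CPM (SD, n = 3 each). It rose with a log2 fold change of 0.37 (SE 0.141, adjusted p = 0.0401 by edgeR, 95% interval 0.07 to 0.68). This call was close to the threshold: it was lost without DMSO replicate 3 (0.26), FT671 replicate 1 (0.29) or FT671 replicate 2 (0.39). It was lost as well with scaling by library totals (0.34) and without a filter on low counts (0.33). It held with corrections for gene length (0.49, or 0.56 with the replicate number as a block) and GC content (0.41, or 0.48 with the block).

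UROD (ENSG00000126088, chromosome 1 from 45010950 to 45015575) decarboxylates uroporphyrinogen to coproporphyrinogen and had the most counts of the 8. Its level was 347.6, 347.8 and 295.0 CPM in DMSO and 334.2, 342.2 and 337.7 CPM after FT671. The FT671 values fell inside the range of the DMSO values. At a log2 fold change of 0.032 (SE 0.076, adjusted p = 0.751 by edgeR) the 95% interval was −0.13 to 0.19. Its sign turned without DMSO replicate 3 (−0.048). UROD shares 375 bases of exon (9.31% of its length) with HECTD3 on the other strand (log2 fold change −0.78).

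CPOX, PPOX and FECH complete the pathway in the mitochondrion. CPOX (ENSG00000080819, chromosome 3 from 98579446 to 98593648), which converts coproporphyrinogen to protoporphyrinogen, had 26.5, 19.7 and 22.9 CPM in DMSO. After FT671 it had 21.8, 22.2 and 20.5 CPM, within the DMSO range. Its log2 fold change of −0.12 (SE 0.129, adjusted p = 0.476 by edgeR, 95% interval −0.39 to 0.16) turned to 0.016 without DMSO replicate 1, the highest library.

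PPOX (ENSG00000143224, chromosome 1 from 161166056 to 161178013), which oxidizes protoporphyrinogen to protoporphyrin, had 23.3, 22.7 and 18.5 CPM in DMSO and 27.8, 27.1 and 22.9 CPM after FT671. FT671 replicate 3 lay below DMSO replicate 1, and the other two FT671 libraries lay above all DMSO libraries. The log2 fold change was 0.22 (SE 0.125, adjusted p = 0.15 by edgeR, 95% interval −0.043 to 0.49). With a correction for GC content it was called, at 0.32 (adjusted p = 0.0129 by edgeR). PPOX shares 1118 bases of exon (23.7% of its length) with B4GALT3 on the other strand (log2 fold change −0.087).

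FECH (ENSG00000066926, chromosome 18 from 57544377 to 57586732), the iron-sulfur enzyme that inserts iron into protoporphyrin, had 82.8, 79.6 and 86.9 CPM in DMSO and 65.3, 78.3 and 74.6 CPM after FT671. The groups did not overlap, although FT671 replicate 2 and DMSO replicate 2 lay close together. At −0.18 (SE 0.0872, adjusted p = 0.0947 by edgeR) its log2 fold change was not called, with a 95% interval of −0.37 to 0.0035. A correction for gene length brought it to −0.049, still without a call.

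**Figure D2:**
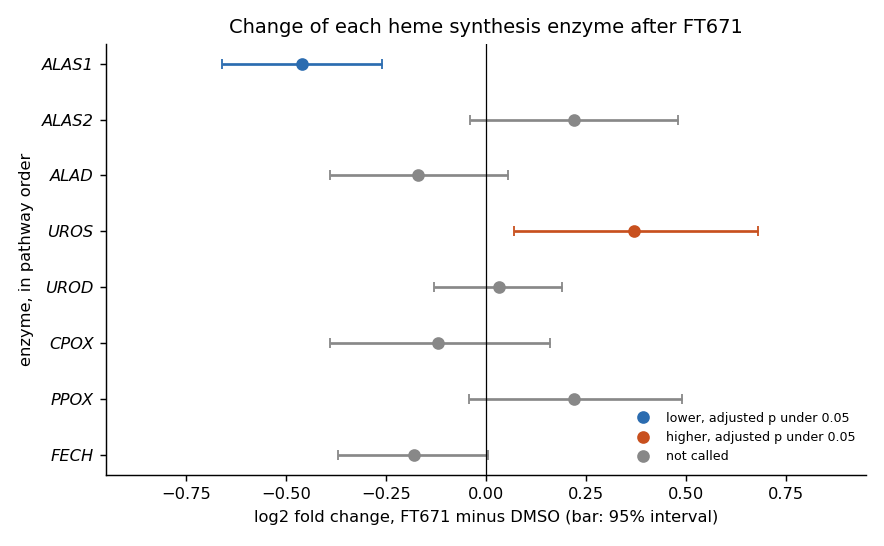
Log2 fold change of FT671 against DMSO (horizontal axis) for each enzyme in pathway order from top to bottom, with 95% intervals from the edgeR fit over 3 libraries per group. Only the intervals of ALAS1 (−0.66 to −0.26) and UROS (0.07 to 0.68) leave out 0, and the members lie on both sides of 0.

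DMSO replicate 3 stood apart for part of the pathway. UROS, ALAS2 and PPOX had only 73, 95 and 100 counts in it. This library held 5320245 counts in total, against 14250500 and 10969971 in DMSO replicates 1 and 2. Relative to the mean of DMSO replicates 1 and 2, its level was lower by 26.7% for UROS, by 21.1% for ALAS2, by 19.7% for PPOX and by 15.1% for UROD. ALAS1 and FECH were higher in it by 8.35% and 7.03%, and ALAD and CPOX lay within 1.38% and 0.659% of that mean. Without this library, 0 of the 8 enzymes were called higher and 1 (ALAS1) was called lower, at a log2 fold change of −0.43. The log2 fold changes of ALAS2 and PPOX were then both 0.13 and that of FECH −0.16.

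Compared per kb of annotated exon, taken as the union of all exons of a gene, UROD was the most abundant enzyme RNA at 81.9 ± 7.55 CPM per kb in DMSO and 83.9 ± 0.996 after FT671 (SD, n = 3 each). ALAS1 was next at 24.8 ± 1.87 and 18.0 ± 0.661 CPM per kb, followed by ALAS2 at 10.1 ± 1.47 and 12.0 ± 0.169. FECH (7.47), CPOX (7.29) and ALAD (6.26 CPM per kb in DMSO) came next, and the ranges of FECH and CPOX and of CPOX and ALAD overlapped. PPOX (4.55) and UROS (1.76 CPM per kb in DMSO) were lowest. A second length, that of the MANE Select transcript, the reference isoform of each gene, was added after the data were seen. On it UROD (276.7 CPM per kb in DMSO) and ALAS1 (26.5) kept their places, while UROS was the third at 12.6 and PPOX the fourth at 12.4. The other four lay between 8.5 (CPOX) and 10.8 CPM per kb (FECH), and neighbours among the 6 lower genes overlapped in DMSO. The order of these 6 therefore depended on the length used.

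**Figure D3:**
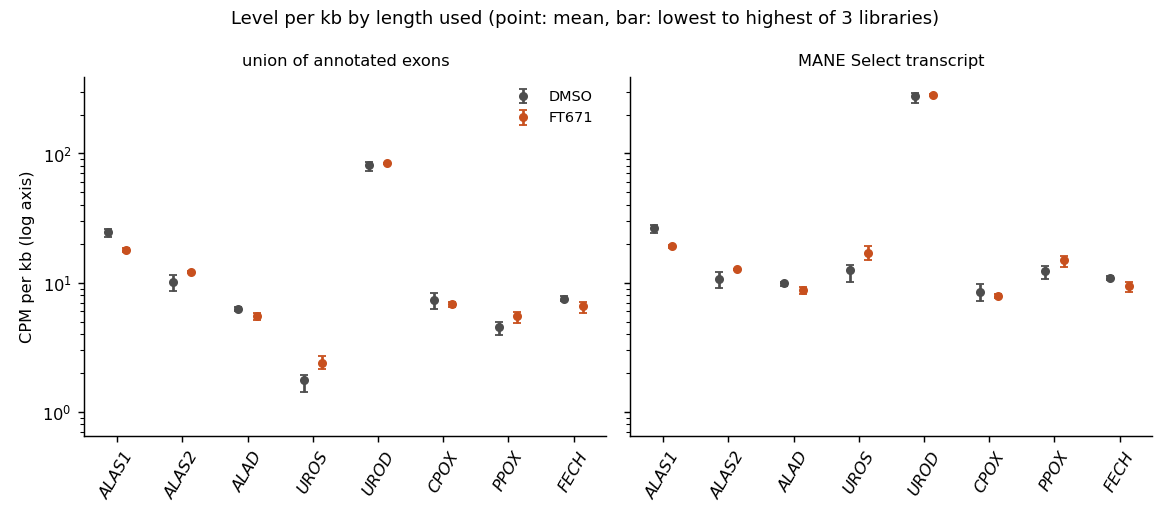
CPM per kb (vertical log axis) of each enzyme in DMSO and after FT671, with the union of annotated exons (left) or the MANE Select transcript (right) as length. Points are means and bars span the lowest to the highest of 3 libraries, and UROD stands above the others in both panels while UROS moves from the lowest to the third place.

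The genes whose pattern over the 6 libraries was most like that of a member were taken from 10761 genes with a mean of at least 5 CPM, by Pearson's r of log2 CPM. For ALAS1 these were UXS1, FUBP3 and GPATCH11 (r = 0.998, 0.995 and 0.994). For ALAS2 they were CBR1, ATRAID and EPHB6 (r = 0.993, 0.989 and 0.986), and for FECH PPP4R3A, DNAJC13 and ATPSCKMT (r = 0.995, 0.995 and 0.989). The 6 libraries share the treatment contrast and their depth, and 1893 genes had an r above 0.9 with ALAS1, 304 with ALAS2 and 286 with FECH.

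The list called mitochondrial partners, for genes that supply substrates of the pathway, move its intermediates or control its enzymes, held 17 genes, all tested. It includes SNX3, which recycles the transferrin receptor and is not itself mitochondrial. Of the 17 genes, 7 rose, 6 fell and 4 were not called, with a median log2 fold change of 0.076. The share called was 76.5%, against 50.1% of all genes. This list and the related lists below were chosen with earlier results of these data known. Their shares beside those of all genes are therefore a description and not a test. Of the partners that act on the ALAS proteins, CLPX, an unfoldase that activates ALAS, rose from 79.1 to 109.5 CPM (log2 fold change 0.48, SE 0.0851, adjusted p = 0.000385 by edgeR). LONP1, a protease that degrades ALAS1, fell from 425.8 to 337.2 CPM (log2 fold change −0.34, SE 0.0845, adjusted p = 0.00407 by edgeR). SLC25A38, the carrier that brings in glycine, fell at −0.29 on the log2 scale. Both mitoferrins, which import iron, fell, SLC25A37 at −0.22 and SLC25A28 at −0.92, the latter from 5.21 to 2.79 CPM. ABCB10, which stabilizes the erythroid mitoferrin, fell at −0.30. TMEM14C, which moves protoporphyrinogen inward, rose at 0.22 and FAM210B at 0.27, while the largest rises were those of SNX3 (0.56), a sorting nexin that recycles the transferrin receptor, and TSPO (0.53), an outer membrane protein that binds porphyrins. The calls for SLC25A37 and TMEM14C were lost with a gene length correction (−0.1 and 0.076). That of SLC25A37 was lost as well without FT671 replicate 1 (−0.22), 2 (−0.21) or 3 (−0.22) and with DESeq2 (−0.2), and that of TMEM14C without DMSO replicate 1 (0.19) or FT671 replicate 2 or 3 (both 0.21). Without the filter on low counts TMEM14C (0.18) and FAM210B (0.23) lost theirs. The calls were lost as well for ABCB10 without DMSO replicate 1 (−0.28) or FT671 replicate 3 (−0.25), and for SLC25A38 (−0.27) and FAM210B (0.23) without FT671 replicate 2.

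Of 14 genes for iron-sulfur cluster assembly, which FECH needs for its cluster, 13 were tested and FDX2, with at most 4 counts, was not. Among the 13, 6 rose, 0 fell and 7 were not called, and the median log2 fold change was 0.24. With a gene length correction 1 of them was called lower. BOLA3, a late assembly factor, rose from 55.3 to 89.2 CPM (log2 fold change 0.68, SE 0.0871, adjusted p = 2.39e-05 by edgeR). NFS1, the cysteine desulfurase that supplies the sulfur, rose at 0.64 on the log2 scale. The share called in either direction, 46.2%, lay close to the 50.1% of all genes. All of these calls were higher, and 23.6% of all genes were called higher.

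Of 13 genes for heme export, use and breakdown, 10 were tested, of which 5 rose, 1 fell and 4 were not called, with a median log2 fold change of 0.20. The 6 called of 10 compare with 50.1% of all genes in either direction, and 23.6% of all genes were called higher. The gene that fell was SLC48A1, a transporter that releases heme from endosomes and lysosomes. It had 63.8, 63.9 and 63.4 CPM in DMSO and 27.1, 32.5 and 35.3 CPM after FT671 (log2 fold change −0.99, SE 0.104, adjusted p = 4.14e-06 by edgeR). The heme-binding proteins HEBP2 and HEBP1 rose at 0.42 and 0.40, and COX10, which starts the conversion of heme for cytochrome oxidase, rose at 0.41. The call for HEBP1 was lost without DMSO replicate 1 (0.35). FLVCR1, known as a heme exporter, had a log2 fold change of 0.15 (adjusted p = 0.451 by edgeR). The inducible heme oxygenase HMOX1 had 0 counts in all 6 libraries. Only if its reads could be counted would this allow up to 0.211 to 0.659 CPM depending on the library (3 counts, counting error only). The annotation and strand setting behind the counts are not given in the sources used here, so whether reads of HMOX1 could be counted is not known, and no level is read from the 0.

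Of 7 genes for sensing heme and iron, 3 rose, 2 fell and 2 were not called, with a median log2 fold change of 0.18. The share called was 71.4%, where that of all genes was 50.1%. NR1D1, a nuclear receptor that binds heme, had 24.0, 24.4 and 23.8 CPM in DMSO and 40.0, 43.7 and 45.7 CPM after FT671 (log2 fold change 0.85, SE 0.1, adjusted p = 1.2e-05 by edgeR). BACH1, a repressor that heme inactivates, rose at 0.29, and EIF2AK1, the heme-regulated kinase of translation initiation, had −0.073 (adjusted p = 0.451 by edgeR). Of the iron regulatory proteins, which bind the ALAS2 transcript when iron is low, ACO1 rose at 0.20 and IREB2 fell at −0.44. FBXL5, which directs IREB2 to degradation, fell at −0.27. The calls for ACO1 and FBXL5 were lost with DESeq2 (0.22 and −0.25) and when any library other than DMSO replicate 3 was left out (0.19 to 0.22 and −0.30 to −0.24). That of ACO1 was lost too with library totals (0.17) and without the filter on low counts (0.16), while a gene length correction gave 0.31, and FBXL5 lost its call with that correction (−0.22). IREB2 kept its call but went to −0.28 without DMSO replicate 3, its highest library (98.2 CPM), and to −0.29 with the length correction. The call for BACH1 was lost without DMSO replicate 1 (0.26), DMSO replicate 2 (0.23) or FT671 replicate 2 (0.22).

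The list of regulators of the ALAS genes held 11 genes, of which PPARGC1A, with at most 1 count, was not tested. Of the 10 tested, 8 fell, 1 rose and 1 was not called, and the median log2 fold change was −0.62. Over all genes, 26.5% were called lower and 50.1% in either direction. Since the list was chosen with earlier results of these data known, its difference from all genes is not a test. GATA1 and TAL1 are in the erythroid marker list too. GFI1B, a transcriptional repressor, had 169.8, 172.9 and 159.5 CPM in DMSO and 33.8, 30.5 and 28.7 CPM after FT671 (log2 fold change −2.45, SE 0.088, adjusted p = 8.85e-10 by edgeR). ZFPM1, the cofactor of GATA1, fell at −1.20, the erythroid factor TAL1 at −0.94 and KLF1, an activator of erythroid genes, at −0.82 on the log2 scale. GATA1 itself had 323.5, 311.2 and 256.0 CPM in DMSO and 252.3, 248.4 and 229.8 CPM after FT671, without overlap. It fell at −0.29 (SE 0.0876, adjusted p = 0.0128 by edgeR), a call that was lost without DMSO replicate 1 (−0.23) or FT671 replicate 3 (−0.25). LMO2, which bridges these factors, was the 1 that rose (0.37). NFE2 and NRF1 fell at −0.52 and −0.63 and ESRRA at −0.61, while LDB1 was not called (−0.1). NFE2, NRF1, ESRRA and LDB1 were named after their values were seen. The core found at ALAS2 is shared by NF-E2 and AP-1, and ALAS1 held the NRF1 palindrome. ALAS2 was not called while GATA1, TAL1, KLF1 and NFE2 fell, and ALAS1 was lower while NRF1 fell. Whether any of these differences are related was not tested.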

How the data were processed

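Reads were aligned by the authors with STAR (2-pass mode, hg38), and the deposited values are the raw read counts per gene that STAR collected. The STAR version, annotation release and strand setting are not given in the sources used here, so reads in exons shared with a gene on the opposite strand cannot be assigned with certainty. Versioned identifiers were matched to GENCODE release 44 (60295 of 60609). The unmatched genes held 0.061% of the counts.

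Counts were filtered with filterByExpr (13895 genes kept), scaled by TMM (factors 0.981 to 1.02) and compared with edgeR 4.0.16 (R 4.3.3), quasi-likelihood test, without covariates. The standard error is the log2 fold change divided by the square root of F. The main edgeR fit and the DESeq2 fit were tested on simulated data with known changes, all larger than those of the members. The other fits were not tested in this way. The exact permutation test used scipy 1.17.1 (Python 3.11.15), with a prior count of 0.5. Alternatives were RLE size factors, library totals, DESeq2 1.42.0, other filters, a replicate block, loess corrections for length and GC content (span 0.3) and each library left out. Lengths of MANE Select transcripts were added after the data were seen. P-values of edgeR and DESeq2 weigh the difference between the groups against the spread between these libraries of 1 cell line.

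Members and lists were chosen with earlier results of these data known. From each related list the 3 largest rises and 3 largest falls were named among genes with a call, no overlap between groups and a mean of at least 1 CPM, plus 15 genes named whatever their values. NFE2, NRF1, ESRRA and LDB1 were named after their values were seen. A gene that the rule names is not reported here. Promoter sequences are from RefSeq.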

Additional observations from a re-analysis of the deposited data

How the results depend on the processing

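The fall of ALAS1 kept its direction and call under all 10 alternatives and with each of the 6 libraries left out, and the log2 fold changes of ALAD and FECH kept their sign without a call. The number of enzymes called higher, 1 as reported, was 0 with library totals alone and without the filter on low counts, 2 with the gene length correction and replicate block, and 3 with the GC correction, with or without the block, and it ranged from 0 to 1 with libraries left out. UROS lost its call with library totals (0.34) and without the filter (0.33), and lay between 0.26 and 0.47 with libraries left out. ALAS2 gained a call with the GC correction (0.29, or 0.31 with the block) and not with the length correction (0.11, or 0.13 with the block). PPOX gained one with the GC correction (0.32, or 0.35 with the block, and 0.32 with the length correction and block). UROD turned negative with library totals (−0.0012) and without the filter (−0.0081), and lay between −0.048 (without DMSO replicate 3) and 0.075 with libraries left out. CPOX lay between −0.22 and 0.016 (without DMSO replicate 1) when libraries were left out. EIF2AK1, not called, turned to 0.0039 with the length correction. The cause of these changes was not tested.

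For the related lists, the mitochondrial partners called higher were 4 without the filter, and 4 to 7 with libraries left out (4 without FT671 replicate 2), and those called lower 3 to 6 (3 without FT671 replicate 2 or 3). In iron-sulfur assembly 1 gene was called lower with the length correction, with or without the block. In heme export, use and breakdown, 3 to 5 genes were called higher with libraries left out (3 without DMSO replicate 1). In heme and iron sensing, 1 gene was called lower with DESeq2 and with the length correction, with or without the block. With libraries left out, 1 to 3 were called higher (1 without DMSO replicate 1 or 2 or FT671 replicate 2) and 1 to 2 lower (2 only without DMSO replicate 3). Of 480 values for 30 related genes, 440 kept their sign and side of the threshold, 39 lost a call and 1 changed sign.

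Both groups carry replicate numbers 1 to 3. Same-numbered libraries had deviations correlated at r = 0.115, −0.0605 and 0.14 across genes, and differently numbered libraries at −0.168 to 0.125. Genes are not independent replicates and each group has only 3 libraries, so these values cannot decide whether the samples were paired. The study describes 3 independent experiments without stating a pairing, and the main fit used none. With the replicate block alone, 3374 genes were called higher and 3761 lower, against 3276 and 3687 without it, and ALAS1 (−0.47) and UROS (0.43) kept their calls. For the 6 enzymes without a call, the 95% intervals give the changes that these libraries do not exclude.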
